A study of Mus musculus with 8 samples.

Results

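The transcripts examined here encode the NF-κB subunits and the inhibitors and adaptors that act back on the pathway: Rel, Rela, Relb, Nfkb1, Nfkb2, Nfkbia, Nfkbie, Tnfaip3, Traf1 and Traf5. Every array probe that carried a name of these 10 genes was taken, which gave 14 of 41174 probes for 10 of the 20037 genes with a current name on the array. NF-κB proteins are dimers of Rel-family subunits that wait in the cytoplasm, bound to IκB inhibitors, until a receptor signal activates the IκB kinases and frees them to enter the nucleus. The genes for several inhibitors are themselves NF-κB targets, so the pathway restrains itself after each signal. In lymphoid cells it carries signals from TNF-family, Toll-like and antigen receptors and sets survival and maturation.

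Expression was measured on 8 one-colour microarrays of Ebf1-/- cells from C57Bl/6 fetal liver. EBF1 is a transcription factor that B-lineage commitment requires. All groups lacked the endogenous factor, because the cells were Ebf1-/-. The c-Kit+ fraction was grown on OP9 cells, a mouse stromal feeder line, with 5 ng/ml IL-7, 10 ng/ml Flt3L and 10 ng/ml SCF, and was infected with pMys retrovirus carrying an IRES-GFP cassette. The virus held no insert (Empty, 2 arrays), wild-type EBF1 (Ebf1wt, 3 arrays) or the variant EBF1-H240A (Ebf1-H240A, 3 arrays), and GFP+ cells were sorted at 36 h. Expression of the 2 proteins therefore came from a retrovirus, in cells without their own EBF1, at a single time. The labels do not give the age of the embryos or say whether replicates came from separate animals or cultures, so a p-value here reflects only how these samples scatter, possibly for technical reasons. The arrays had a 75th percentile of signal between 231.8 and 325.9, 54.6% to 59.6% of probes well above background and 0 saturated spots, and replicates of a group correlated at r = 0.991 to 0.995 across genes.

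The labelled cell type was compared with its markers. Kit was well above background on all 8 arrays, at log2 10.57 and 10.64 with Empty, 9.76, 9.82 and 9.85 with Ebf1wt, then 9.49, 9.29 and 9.63 with Ebf1-H240A, and Ptprc, the leukocyte marker CD45, lay between 13.37 and 13.66. Summed scaled signals of the tested B-lineage markers ran from 762.5 to 827.4 with Empty, 51510 to 57840 with Ebf1wt and 27850 to 31570 with Ebf1-H240A, and Pax5 was well above background on 0 arrays. Summed stromal markers ran from 14120 to 14720, 16660 to 21350 and 13390 to 16660 in the same order of groups. Thy1, which blood progenitors also express, made up 82.3% to 93.6% of that sum and did not pass (0.29 and -0.12), while Pdgfrb was higher by 1.54 and 1.95 and Col1a1 by 1.16 with Ebf1-H240A. Of 8 stromal markers tested, 4 were higher with Ebf1wt than with Empty and 6 with Ebf1-H240A, at an adjusted p under 0.05 (limma). Over all genes 17.1% were higher and 21.3% lower with Ebf1wt, and 21.6% and 23.0% with Ebf1-H240A. The myeloid counts below are to be read against the same shares. Pdgfra and Postn were well above background on 0 arrays. Summed myeloid markers ran from 22350 to 26850, 18090 to 23700 and 28080 to 37550, with Elane at 0 arrays, and Lyz2 made up 73.3% to 87.6% of that sum. Of 8 myeloid markers tested, 2 were higher and 4 lower with Ebf1wt (median -0.69), and 3 were higher and 4 lower with Ebf1-H240A (median -0.56), with Mpo, Itgam, Fcgr3 and Cd14 lower in both. Summed T-lineage markers ran from 6724 to 7080, 2776 to 2905 and 2319 to 2537. The part of any of these differences in the values of the NF-κB genes was not tested. In sorted bulk cells, fewer cells of a type and less RNA per cell cannot be told apart.

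The promoters of 8 members, with 11 start sites, were found in a RefSeq-derived table of build GRCm38.p6. Of these, 4 are printed as examples, those of Nfkbia, Tnfaip3 and Nfkb2 with a κB match and that of Traf1 without one. Each sequence is the 250 bases before the start, and capitals mark matches to the κB consensus, the 10-letter site of NF-κB dimers. Nfkbia lies at chr12:55492648-55492897 on the minus strand, Tnfaip3 (first of 2 starts) at chr10:19015411-19015660 on the minus strand, Nfkb2 (first of 3 starts) at chr19:46304487-46304736 on the plus strand and Traf1 at chr2:34961773-34962022 on the minus strand.
Nfkbia promoter: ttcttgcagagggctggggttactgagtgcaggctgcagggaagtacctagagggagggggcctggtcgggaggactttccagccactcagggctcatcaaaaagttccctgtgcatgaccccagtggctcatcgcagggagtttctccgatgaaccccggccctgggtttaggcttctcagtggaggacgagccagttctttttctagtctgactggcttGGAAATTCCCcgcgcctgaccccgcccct
Tnfaip3 promoter: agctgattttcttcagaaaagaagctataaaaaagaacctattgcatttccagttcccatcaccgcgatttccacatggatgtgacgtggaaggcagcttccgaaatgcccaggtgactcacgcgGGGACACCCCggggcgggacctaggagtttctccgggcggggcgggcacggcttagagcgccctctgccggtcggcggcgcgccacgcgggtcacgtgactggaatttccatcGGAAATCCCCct
Nfkb2 promoter: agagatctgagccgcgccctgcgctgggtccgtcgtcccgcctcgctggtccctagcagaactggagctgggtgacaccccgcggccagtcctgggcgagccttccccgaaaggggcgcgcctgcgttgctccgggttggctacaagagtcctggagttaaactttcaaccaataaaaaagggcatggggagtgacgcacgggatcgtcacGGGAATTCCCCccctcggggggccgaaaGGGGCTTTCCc
Traf1 promoter: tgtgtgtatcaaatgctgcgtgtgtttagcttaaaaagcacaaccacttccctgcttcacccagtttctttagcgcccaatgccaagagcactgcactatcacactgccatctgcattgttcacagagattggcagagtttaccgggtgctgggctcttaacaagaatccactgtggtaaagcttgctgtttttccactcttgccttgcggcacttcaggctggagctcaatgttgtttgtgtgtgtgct
A κB match on either strand stood in 7 of the 11 member windows, those of Rel, Nfkb2 (all 3 starts), Nfkbia, Nfkbie and Tnfaip3 (first start), against 7.25% of 32851 promoter windows of the same length. The match in Nfkbia began 29 bases before the start, and overlapping matches on the 2 strands were marked together in Rel and Nfkb2. No match was found in the windows of Rela, Traf1, Traf5 and the second start of Tnfaip3. The palindromic EBF site, a core of CCCNNGGG with T before it and A after it, was in 0 of the 11 windows and in 0.779% of all windows, and the core alone was in 3 windows, of Nfkb2 and Tnfaip3, against 11.8% of all windows. These letters are a description of the windows, and binding was not measured.

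The first comparison asked what wild-type EBF1 changed against the empty vector. A gene was called when its limma p-value, adjusted by Benjamini-Hochberg over 16306 genes, was under 0.05. Of the 9 members tested, Traf1 and Relb were higher with Ebf1wt, Nfkb1, Tnfaip3 and Traf5 were lower, and 4 did not pass. The background was high, since 38.4% of all genes were called in this comparison, 17.1% higher and 21.3% lower, and the members' count of 5 of 9 is to be read against it. The members' median difference was 0.03 on the log2 scale, against -0.04 over all genes. The count of called members was 3 without Empty 1 and 2 without Empty 2.

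The second comparison asked the same of EBF1-H240A. Traf1, Relb and Nfkbia were higher than with Empty, Nfkb1, Tnfaip3 and Traf5 were lower, and 3 members did not pass, against 44.6% of all genes called, 21.6% higher and 23.0% lower. The median difference of the members was 0.12, against -0.00 over all genes, and the count of called members was 3 without Empty 2 or Ebf1-H240A 1, and 4 without Empty 1 or Ebf1-H240A 3. Both comparisons use the same 2 Empty arrays, so their values are given side by side and are not independent of each other. With the array slide as a block 4 and 5 members were called, Relb being lost in both. Within a single slide the spread comes from 1 pair of arrays, the 2 Ebf1-H240A arrays on slide 1 and the 2 Ebf1wt arrays on slide 2, and the lone arrays are assumed to vary like these, so only the differences are given.

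**Figure D1:**
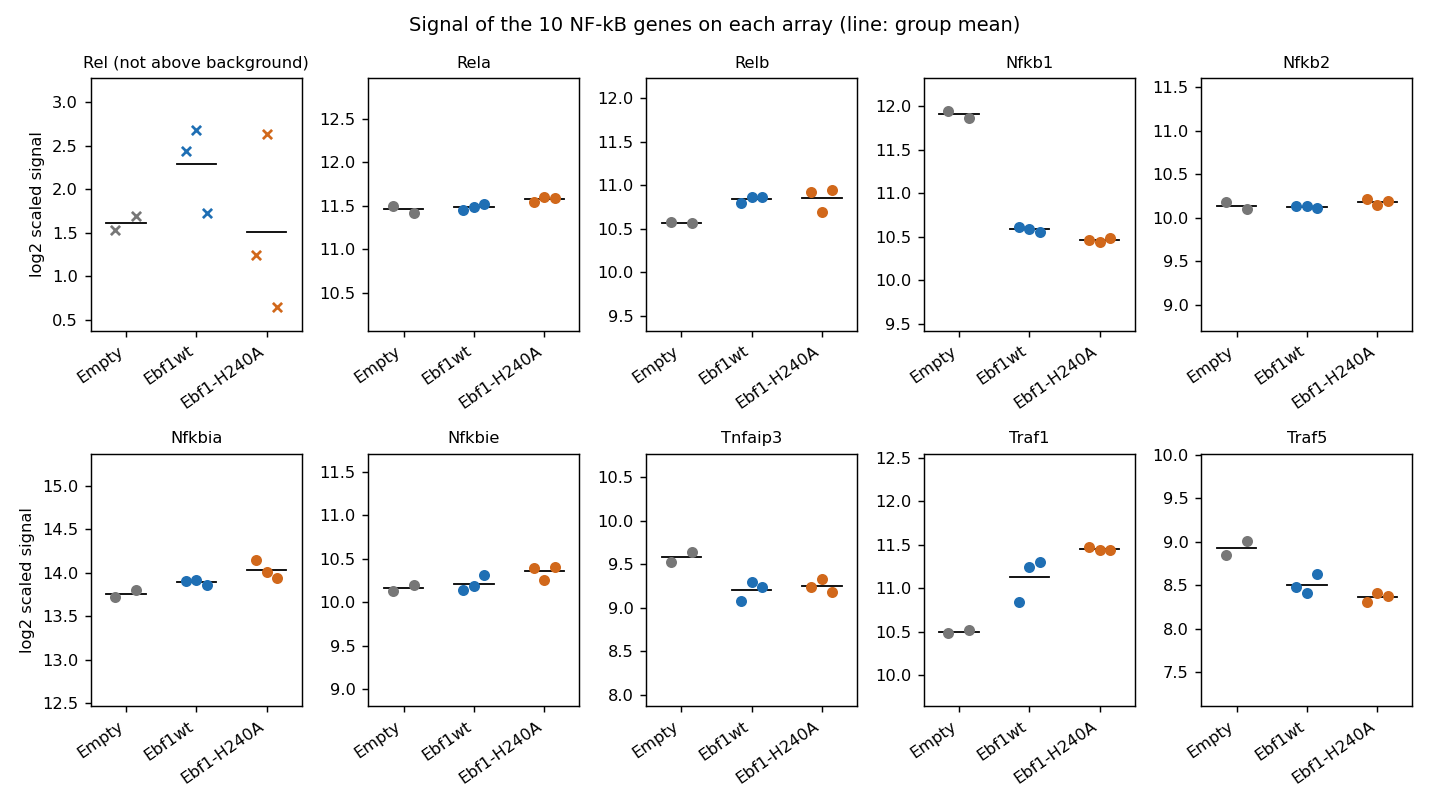
Log2 scaled signal (vertical axis) of each of the 10 genes on each array, by group (horizontal axis), with the group mean as a line; every panel spans the same range of log2 units, and crosses mark Rel, which was not well above background. Nfkb1 lay at 11.87 and 11.95 with Empty and between 10.44 and 10.61 on the 6 other arrays, and Traf1 lay at 10.48 and 10.52 with Empty and between 10.84 and 11.47 on the others.

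Among the subunits, Nfkb1 differed most. It encodes p105, which is processed to the p50 subunit, and p50 pairs with RelA in the best-known NF-κB dimer. Its brightest probe, at chr3:135247710-135247771 on the minus strand (mm9), read 11.95 and 11.87 with Empty, 10.61, 10.59 and 10.56 with Ebf1wt, then 10.47, 10.44 and 10.49 with Ebf1-H240A. The Empty arrays were high, the other 6 were low, and no group overlapped another. Nfkb1 fell by 1.32 ± 0.06 (SE) log2 units with Ebf1wt, a 2.50-fold lower signal (adjusted p = 1.05e-05, limma, n = 3 against 2). It fell by 1.44 ± 0.06 with Ebf1-H240A, 2.72-fold lower (adjusted p = 6.84e-06, limma, n = 3 against 2). Both calls were kept whichever of the 8 arrays was left out. Within slides 1 and 2 the difference was -1.36 and -1.28 for Ebf1wt and -1.50 and -1.38 for Ebf1-H240A.

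Nfkb1 was the member with the most probes, and the 3 others lay 26.5 to 33.5 kb upstream of the brightest. Exon, intron or UTR cannot be given for a probe, because no mm9 annotation was used here. The probe 26.5 kb upstream, at chr3:135274175-135274234, read 8.29 and 8.42 with Empty, 7.20, 7.14 and 7.48 with Ebf1wt, then 7.51, 7.51 and 7.52 with Ebf1-H240A. The probe 27.4 kb upstream, at chr3:135275144-135275203, read 8.73 and 8.42, then 7.52, 7.77 and 7.49, then 7.95, 8.08 and 8.15 in the same order. The probe 33.5 kb upstream, at chr3:135281195-135281254, read 5.98 and 6.40, then 4.95, 4.75 and 5.02, then 5.20, 5.02 and 5.25. On every probe both Empty arrays were above all 6 others.

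In a fit on all probes, where 20.2% of probes were called lower for Ebf1wt against Empty and 22.3% for Ebf1-H240A, all 4 Nfkb1 probes were called lower in both comparisons. For Ebf1wt the differences were -1.32 at the brightest probe, then -1.08, -0.99 and -1.28 with distance upstream. For Ebf1-H240A they were -1.44, then -0.84, -0.52 and -1.03. The brightest probe thus gave the lower signal with Ebf1-H240A, while the group means of the 3 upstream probes were lower with Ebf1wt. The direct differences, Ebf1-H240A minus Ebf1wt, were -0.12 (adjusted p = 0.255), 0.24 (0.210), 0.47 (0.0676) and 0.25 (0.338) by limma, and none passed, where 5.28% of all probes were called. Whether the probes differ from each other was not tested.

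**Figure D2:**
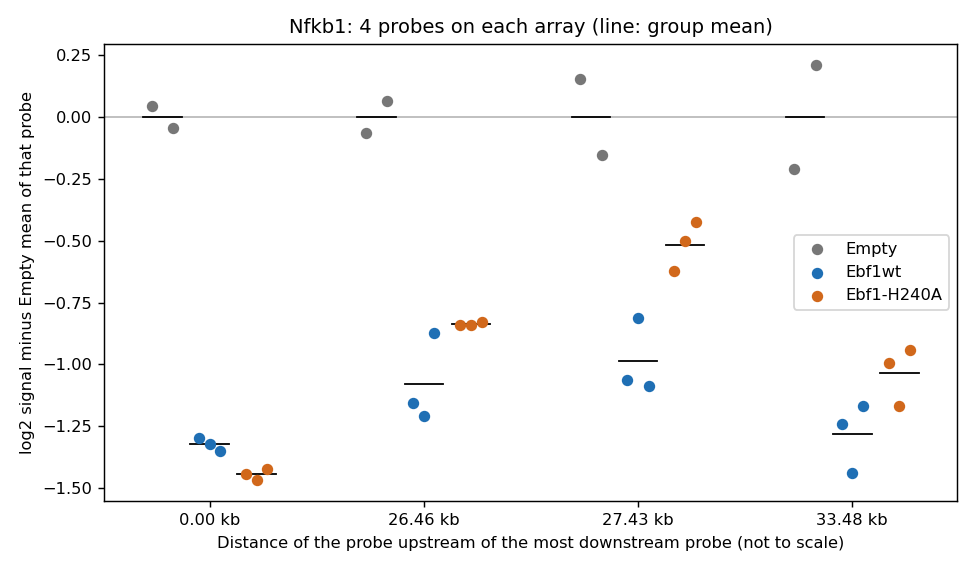
Log2 signal minus the Empty mean of the same probe (vertical axis) on each array for the 4 Nfkb1 probes, ordered by distance upstream of the most downstream, brightest probe (horizontal axis, kb, not to scale); points are arrays and lines group means. The Ebf1wt means were -1.32, -1.08, -0.99 and -1.28, and those of Ebf1-H240A were -1.44, -0.84, -0.52 and -1.03.

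Relb encodes the subunit of the non-canonical branch, which pairs with p52. Its probe at chr7:20191722-20191781 on the minus strand read 10.57 and 10.57 with Empty, 10.79, 10.87 and 10.86 with Ebf1wt, then 10.93, 10.69 and 10.94 with Ebf1-H240A. The Empty arrays were the lowest, and the groups with EBF1 overlapped each other. Relb was higher by 0.27 ± 0.09 with Ebf1wt (adjusted p = 0.0499, limma, n = 3 against 2) and by 0.28 ± 0.09 with Ebf1-H240A (adjusted p = 0.0381, limma, n = 3 against 2). Both calls were lost when any array but Ebf1-H240A 2 was left out, 7 of 8 cases, with adjusted p from 0.0552 to 0.160 for Ebf1wt and from 0.0541 to 0.135 for Ebf1-H240A (limma). They were also lost with the slide as a block, at 0.27 (adjusted p = 0.0799, limma) and 0.29 (0.0557), while within slides 1 and 2 the differences were 0.29 and 0.26, and 0.23 and 0.38.

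Rela and Nfkb2 did not pass in any comparison. Rela encodes the main transactivating subunit, and its brightest probe, at chr19:5647632-5647691 on the plus strand, read 11.50 and 11.42 with Empty, 11.45, 11.49 and 11.52 with Ebf1wt, then 11.54, 11.60 and 11.60 with Ebf1-H240A. All arrays lay close together, with the Ebf1-H240A arrays just above the others. The difference was 0.03 ± 0.06 for Ebf1wt (95% interval -0.11 to 0.16) and 0.12 ± 0.06 for Ebf1-H240A (-0.02 to 0.26). A second Rela probe, at chr19:5647136-5647195, read from 8.25 to 8.42 over the 8 arrays, with differences of 0.03 and 0.08. Nfkb2 encodes p100, the precursor of p52, and also acts as an inhibitor of RelB dimers. Its probe at chr19:46386146-46386285 on the plus strand read 10.18 and 10.09, then 10.13, 10.13 and 10.11, then 10.21, 10.14 and 10.19. The groups with either protein overlapped Empty, with differences of -0.01 ± 0.06 (95% interval -0.15 to 0.13) and 0.05 ± 0.06 (-0.09 to 0.18).

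Rel, which encodes c-Rel, was the member without a usable signal. Its probe, at chr11:23641729-23641743 on the minus strand as far as the files place it, was well above background on 0 of 8 arrays and was not tested. It read 1.53 and 1.70 with Empty, 2.44, 2.68 and 1.73 with Ebf1wt, then 1.24, 2.64 and 0.643 with Ebf1-H240A, where the lowest signals well above background were 2.06 to 3.03. Values this dim have no order, and nothing about c-Rel can be read from them.

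The 3 feedback inhibitors differed in direction. Nfkbia encodes IκBα, which binds NF-κB dimers and returns them to the cytoplasm. Its 60-base probe is shown because the mm9 coordinates, chr12:56590945-56591440 on the minus strand, span 496 bases, so that it is split in the genome.
Nfkbia probe: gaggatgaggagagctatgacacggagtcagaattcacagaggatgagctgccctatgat
It read 13.73 and 13.80 with Empty, 13.91, 13.92 and 13.86 with Ebf1wt, then 14.15, 14.01 and 13.95 with Ebf1-H240A. The 3 groups did not overlap and ran upward in that order. Nfkbia was higher by 0.27 ± 0.08 with Ebf1-H240A (adjusted p = 0.0242, limma, n = 3 against 2). The difference for Ebf1wt, 0.13 ± 0.08, did not pass (adjusted p = 0.211, limma, n = 3 against 2; 95% interval -0.05 to 0.32). The Ebf1-H240A call was lost without Empty 1 (0.24, adjusted p = 0.122), Empty 2 (0.31, 0.0606) or Ebf1-H240A 1 (0.22, 0.0535) by limma. It was also lost under quantile normalization alone (0.21, adjusted p = 0.0996, limma) or with normexp background correction (0.27, 0.138). The call was lost too with the authors' value table (0.30, adjusted p = 0.134, limma) and with no filter on dim probes (0.27, 0.0849). A fit of only the groups compared also lost it (0.27, adjusted p = 0.063, limma). Within slides 1 and 2 the difference was 0.36 and 0.15.

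Tnfaip3 encodes A20, a ubiquitin-editing enzyme that shuts off signalling upstream of the kinases. Its probe at chr10:18720994-18721053 on the minus strand read 9.52 and 9.65 with Empty, 9.08, 9.30 and 9.24 with Ebf1wt, then 9.23, 9.32 and 9.18 with Ebf1-H240A. Both Empty arrays were higher than the others, which overlapped each other. Tnfaip3 fell by 0.38 ± 0.09 with Ebf1wt (adjusted p = 0.0150, limma, n = 3 against 2) and by 0.34 ± 0.09 with Ebf1-H240A (adjusted p = 0.0200, limma, n = 3 against 2). The call for Ebf1wt was lost without Empty 2 (-0.32, adjusted p = 0.0916, limma). That for Ebf1-H240A was lost without Empty 2 (-0.27, 0.118), Ebf1-H240A 1 (-0.33, 0.0543) or Ebf1-H240A 3 (-0.30, 0.0571), by the same test. Within slides 1 and 2 the differences were -0.22 and -0.49 for Ebf1wt, and -0.24 and -0.46 for Ebf1-H240A. With the authors' value table the differences were -0.28 (adjusted p = 0.118, limma) and -0.30 (0.0892). With Ebf1-H240A, Tnfaip3 was lower and Nfkbia higher, and both promoters hold κB matches. Whether the matches bear on either difference was not tested.

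Nfkbie encodes IκBε, an inhibitor induced later than IκBα in many cells. Its probe at chr17:45700000-45700059 on the plus strand read 10.13 and 10.19 with Empty, 10.14, 10.18 and 10.32 with Ebf1wt, then 10.39, 10.26 and 10.40 with Ebf1-H240A. The Ebf1wt arrays overlapped Empty, and those of Ebf1-H240A lay above it. The differences, 0.05 ± 0.08 (adjusted p = 0.674) and 0.19 ± 0.08 (adjusted p = 0.0980), did not pass by limma.

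The 2 TRAF adaptors moved in opposite directions. Traf1 encodes an adaptor of TNF-family receptors that lacks the RING domain of other TRAFs and is itself induced by NF-κB. Its probe at chr2:34798882-34798941 on the minus strand read 10.48 and 10.52 with Empty, 10.84, 11.25 and 11.30 with Ebf1wt, then 11.47, 11.44 and 11.44 with Ebf1-H240A. The 3 groups did not overlap, and Ebf1wt 1 lay apart from the other Ebf1wt arrays, toward Empty. Traf1 was higher by 0.63 ± 0.13 with Ebf1wt, 1.55-fold (adjusted p = 0.0101, limma, n = 3 against 2), and by 0.95 ± 0.13 with Ebf1-H240A, 1.94-fold (adjusted p = 0.00143, limma, n = 3 against 2). The call for Ebf1wt was lost without Empty 1 (0.61, adjusted p = 0.0583, limma), and that for Ebf1-H240A was kept whichever array was left out. Within slides 1 and 2 the differences were 0.77 and 0.55, and 0.98 and 0.92.

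Traf5 encodes an adaptor of CD40, the lymphotoxin-β receptor and other TNF-family receptors. Its probe at chr1:193821295-193821354 on the minus strand read 8.85 and 9.01 with Empty, 8.48, 8.41 and 8.62 with Ebf1wt, then 8.30, 8.41 and 8.38 with Ebf1-H240A. The Empty arrays were the highest, and Ebf1wt 2 met the highest array of Ebf1-H240A within rounding. Traf5 fell by 0.42 ± 0.09 with Ebf1wt (adjusted p = 0.00935, limma, n = 3 against 2) and by 0.56 ± 0.09 with Ebf1-H240A (adjusted p = 0.00225, limma, n = 3 against 2). The call for Ebf1wt was lost without Empty 2 (-0.34, adjusted p = 0.0628, limma) and with normexp background correction and quantile normalization together (-0.22, 0.191), and that for Ebf1-H240A was kept whichever array was left out. The authors' value table gave smaller differences, -0.18 (adjusted p = 0.361, limma) for Ebf1wt and -0.33 (0.0839) for Ebf1-H240A. Within slides 1 and 2 the differences were -0.43 and -0.46, and -0.49 and -0.63.

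The third comparison tested the difference between the 2 proteins itself. No member passed, against 6.34% of all genes called, 3.63% higher and 2.71% lower with Ebf1-H240A than with Ebf1wt. At an unadjusted p under 0.05, 1 member differed by limma, Traf1, which was higher by 0.32 ± 0.12 with Ebf1-H240A (95% interval 0.04 to 0.61, adjusted p = 0.170, n = 3 against 3). The interval for Nfkb1 was -0.24 to 0.0004, for Nfkbia -0.02 to 0.30, for Tnfaip3 -0.15 to 0.23 and for Traf5 -0.33 to 0.05, and that for Relb was -0.18 to 0.20. These intervals hold differences of up to 0.61 log2 units, so the proteins are not shown to act alike on any member. Nfkbia is called against Empty for Ebf1-H240A and not for Ebf1wt, and the direct difference of 0.14 ± 0.07 did not pass (adjusted p = 0.284, limma, n = 3 against 3).

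**Figure D3:**
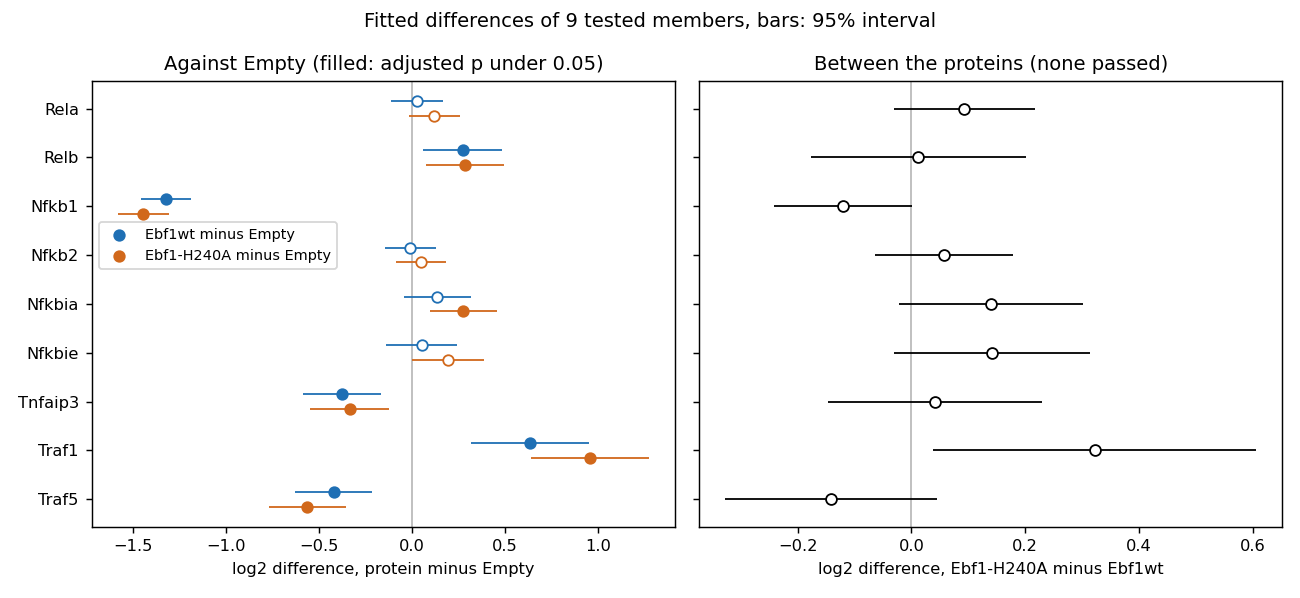
Fitted log2 differences (horizontal axes) with 95% intervals for the 9 members tested, against Empty on the left (blue Ebf1wt, orange Ebf1-H240A, filled where the adjusted p was under 0.05) and between the 2 proteins on the right. Nfkb1 stands farthest to the left at -1.32 and -1.44, Traf1 farthest to the right at 0.63 and 0.95, and no member passed on the right, where Traf1 reached 0.32.

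The genes nearest in pattern were sought for the 3 members with the widest range of group means, 1.44 for Nfkb1, 0.95 for Traf1 and 0.56 for Traf5, as the smallest root mean square difference of mean-centred log2 signal over the 8 arrays. Nearest to Nfkb1 were Mex3b (0.06), Mycl (0.07) and Atp8a2 (0.07). Nearest to Traf1 were Bcl6 (0.06), Nfe2l2 (0.07) and Rtn4rl2 (0.07). Nearest to Traf5 were Fkbp7, Erdr1 and Stoml1 (each 0.04). These distances describe the 8 arrays and carry no test.

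The other genes of the pathway were followed through lists of ligands, receptors, adaptors, kinases, inhibitors and common targets, of which 75 of 79 genes were tested. With Ebf1wt 22 were higher, 10 lower and 43 did not pass, with a median of 0.11, and with Ebf1-H240A 34 were higher, 8 lower and 33 did not pass, with a median of 0.23. Over all genes, 17.1% were called higher and 21.3% lower with Ebf1wt, with a median of -0.04. With Ebf1-H240A 21.6% were called higher and 23.0% lower, with a median of -0.00. The lists are described only by these counts, and each list below is to be read against the same shares. The count of higher genes was 15 and 21 without Empty 1, and 14 and 24 without Empty 2, for Ebf1wt and Ebf1-H240A. Cd40lg, Il1a and Tlr6 were too dim to test, and no probe carried the name of Bcl2a1d.

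Of the 6 ligands tested, 3 were higher and 1 lower with Ebf1wt, and 4 were higher and 2 lower with Ebf1-H240A. Il1b, the interleukin-1β gene, was higher by 1.24 ± 0.30 and 1.34 ± 0.30, and Lta, lymphotoxin-α, by 0.72 ± 0.09 and 1.33 ± 0.09. Ltb, lymphotoxin-β, fell by 0.56 ± 0.06 in both, and Tnfsf11, the RANK ligand, fell by 0.37 ± 0.11 with Ebf1-H240A. The Il1b call for Ebf1wt was lost without Empty 1, Empty 2 or Ebf1wt 2 and that for Ebf1-H240A without Empty 1, with adjusted p up to 0.0961 and 0.0658 (limma). With normexp background correction and quantile normalization together, the differences of Il1b were smaller, 0.46 and 0.51. The Tnfsf11 call was lost when any of the 5 Empty and Ebf1wt arrays was left out, with adjusted p up to 0.133 (limma).

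Of the 13 receptors, 4 were higher and 2 lower with Ebf1wt, and 7 were higher and 2 lower with Ebf1-H240A. Cd40, a TNF-family receptor of B cells that signals through TRAF proteins, was higher by 3.41 ± 0.12 with each protein (adjusted p = 4.43e-06 and 4.14e-06, limma). Tnfrsf13c, the BAFF receptor, was higher by 1.55 ± 0.11 with Ebf1wt, and Tlr2, a Toll-like receptor, by 1.998 ± 0.11 with Ebf1-H240A. Il1r1, the interleukin-1 receptor, fell by 0.83 ± 0.08 and 0.81 ± 0.08. Tnfrsf11a, which encodes RANK, fell by 0.88 ± 0.11 with Ebf1wt. It was not well above background on any Ebf1-H240A array, at least 3.02-fold lower than Empty (adjusted p = 3.82e-05, limma). Each of these receptor calls was kept whichever array was left out. Tnfrsf13c was also higher with Ebf1-H240A, by 0.72 ± 0.11 (adjusted p = 0.00209, limma). Tlr2 was also higher with Ebf1wt, by 1.32 ± 0.11 (adjusted p = 0.000181, limma). With normexp background correction and quantile normalization together, Tnfrsf13c was higher by 0.96 with Ebf1wt, and the differences of Tnfrsf11a were -0.12 (adjusted p = 0.188, limma) and -0.23 (0.0166). With the authors' value table those of Tnfrsf11a were -0.32 (adjusted p = 0.0707, limma) and -0.63 (0.00200), and with the mean over its probes the Ebf1wt difference was -0.52 (0.149).

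The counts of adaptors and kinases are set against 38.4% of all genes called with Ebf1wt and 44.6% with Ebf1-H240A. Of 16 adaptors and ubiquitin enzymes, 2 were higher and 1 lower with Ebf1wt, and 4 were higher and 1 lower with Ebf1-H240A. Traf3, an adaptor that limits the non-canonical branch, was higher by 0.65 ± 0.10 with Ebf1-H240A. Traf2, a partner of TRAF1, was higher by 0.44 ± 0.10 and 0.37 ± 0.10, and Irak1, a kinase of the Toll-like receptor adaptor complex, fell by 0.59 ± 0.08 and 0.75 ± 0.08. The Traf2 call was lost without Empty 2 for Ebf1wt (adjusted p = 0.0905, limma), and without Empty 2, Ebf1-H240A 2 or Ebf1-H240A 3 for Ebf1-H240A (adjusted p up to 0.142).

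Of 9 kinases and kinase partners, 0 were higher and 3 lower with Ebf1wt, and 2 were higher and 1 lower with Ebf1-H240A. Tab1, a partner of TAK1, fell by 0.44 ± 0.10 and Map3k14, the NIK kinase of the non-canonical branch, by 0.39 ± 0.08 with Ebf1wt. Ikbke was higher by 0.53 ± 0.09 and Tbk1 by 0.43 ± 0.09 with Ebf1-H240A. Tab2 fell with both proteins, by 0.36 ± 0.06 with Ebf1wt and 0.40 ± 0.06 with Ebf1-H240A. Leaving out Empty 1 ended the call of Tab1 (adjusted p = 0.0786, limma), and leaving out Empty 2 those of Map3k14 (0.0699) and Tbk1 (0.0533). With the authors' value table the calls of Tab1 (-0.28, adjusted p = 0.164, limma) and Map3k14 (-0.34, 0.110) were lost, as they were with normexp and quantile normalization together (-0.31, 0.0815, and -0.29, 0.113).

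Of 12 other inhibitors and negative regulators, 3 were higher and 1 lower with Ebf1wt, and 5 were higher and 0 lower with Ebf1-H240A. Nfkbid, a nuclear IκB protein, was higher by 0.43 ± 0.13 with Ebf1wt and 0.85 ± 0.13 with Ebf1-H240A. Tank was higher by 0.34 ± 0.07 and 0.49 ± 0.07 in the same order. Tnip1, a partner of A20, was higher by 0.25 ± 0.07 and 0.52 ± 0.07. Bcl3, another nuclear IκB protein, fell by 0.36 ± 0.11 with Ebf1wt. For Ebf1wt the call of Nfkbid was lost when any of 5 arrays was left out (Empty 1, Empty 2, Ebf1wt 2, Ebf1wt 3 or Ebf1-H240A 1), that of Tank without Empty 1 (adjusted p = 0.0590, limma) and that of Bcl3 when any array but Ebf1wt 2 was left out. The adjusted p then reached 0.130 for Nfkbid and 0.206 for Bcl3 (limma).

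The common target genes were the longest list, so their number of calls is not comparable with those of shorter lists. Of 19 tested, 10 were higher and 2 lower with Ebf1wt (median 0.48), against 17.1% and 21.3% of all genes. With Ebf1-H240A 12 were higher and 2 lower (median 0.46), against 21.6% and 23.0% of all genes. The chemokine gene Cxcl1 was higher by 1.50 ± 0.24 with Ebf1wt, by 0.79 with the authors' value table and by 0.32 with normexp background correction and quantile normalization together. With Ebf1-H240A Cxcl1 was higher by 1.02 ± 0.24 (adjusted p = 0.0126, limma). Cxcl10, an interferon-inducible chemokine gene, was higher by 1.42 ± 0.24 and 1.34 ± 0.24. Gadd45b, a stress response gene, was higher by 0.95 ± 0.11 with Ebf1wt and 1.33 ± 0.11 with Ebf1-H240A. Ier3, an early response gene, fell by 1.17 ± 0.10 and 1.20 ± 0.10, and Ccr7, a chemokine receptor gene, by 0.70 ± 0.08 and 0.81 ± 0.08. Plau, the urokinase gene, was well above background on 0 Empty arrays, on 1 Ebf1wt array and on 1 Ebf1-H240A array. It was at least 1.09-fold higher with Ebf1-H240A than with Empty, and no such bound could be given for Ebf1wt. The Plau call was lost when any of 5 arrays was left out for Ebf1wt (Empty 1, Empty 2, Ebf1wt 1, Ebf1wt 2 or Ebf1-H240A 1) and any of 4 for Ebf1-H240A (Empty 1, Empty 2, Ebf1-H240A 1 or Ebf1-H240A 3). It was also lost with normexp and quantile normalization together, at 0.14 and 0.11, and with the authors' value table, at 0.59 and 0.48 (adjusted p = 0.217, 0.318, 0.0525 and 0.0906, limma).

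Between the 2 proteins 9 of the 75 pathway genes were higher with Ebf1-H240A, 3 were lower and 63 did not pass, with a median of 0.07 against 0.02 over all genes. Over all genes 3.63% were called higher and 2.71% lower, 6.34% either way. The 9 higher genes were Lta (0.61 ± 0.08), Tnf (0.53 ± 0.08), Tlr2 (0.67 ± 0.10), Tnfrsf1a (0.27 ± 0.05), Traf3 (0.41 ± 0.09), Ikbke (0.42 ± 0.08), Bcl3 (0.67 ± 0.10), Cyld (0.30 ± 0.06) and Irf1 (0.50 ± 0.08). Among the lower genes, Tnfrsf13c fell by 0.83 ± 0.10 and Tnfrsf11a was at least 1.63-fold lower. The Tnfrsf11a call was lost with normexp and quantile normalization together (-0.11, adjusted p = 0.392, limma), with the authors' value table (-0.31, 0.174) and with the mean over its probes (-0.81, 0.0868). Among the calls named, those of Lta, Tnfrsf13c and Tnfrsf11a were kept whichever array was left out. That of Tnf was lost without Ebf1wt 1, those of Tlr2 and Bcl3 without Ebf1-H240A 1 or Ebf1-H240A 3, and that of Irf1 without Ebf1wt 1, Ebf1wt 2 or Ebf1-H240A 1. Those of Tnfrsf1a and Cyld were lost when any of the 6 Ebf1wt and Ebf1-H240A arrays was left out, that of Traf3 when any array but Ebf1-H240A 1 was, and that of Ikbke when any of the 6 but Ebf1wt 2 was. The count of higher genes was 3 without Ebf1wt 1, Ebf1-H240A 1 or Ebf1-H240A 3, and 5 without Ebf1wt 2 or Ebf1wt 3.

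**Figure D4:**
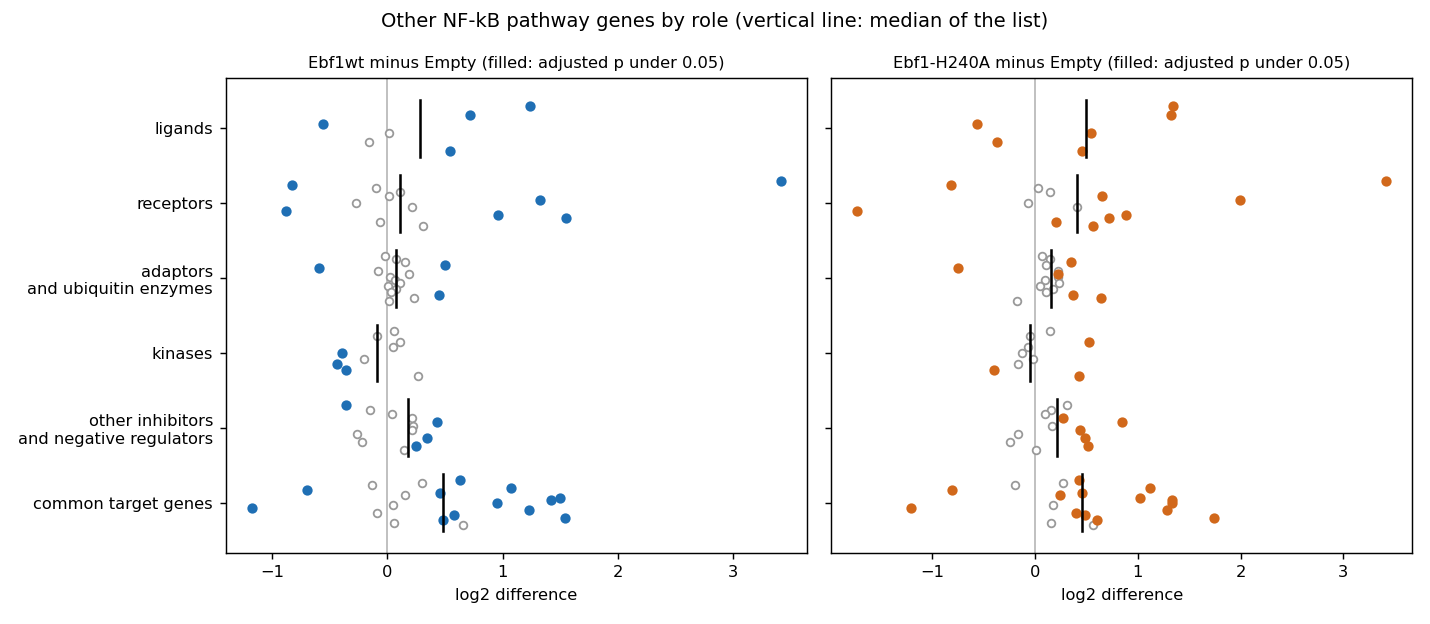
Log2 difference (horizontal axis) of each tested pathway gene by list (vertical axis), with Ebf1wt minus Empty on the left and Ebf1-H240A minus Empty on the right; filled points had an adjusted p under 0.05 and the vertical line is the median of the list. Cd40 stands apart at 3.41 in both panels, and the medians of the target genes were 0.48 and 0.46.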

How the data were processed

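Cy3-labelled cRNA from 0.2 ug of RNA was hybridised to one-colour Agilent arrays, and per the submitters' processing notes Agilent Feature Extraction 10.5.1.1 made the scanner output. Its processed signal is, per the file headers, a background-corrected intensity on a linear scale, and coordinates are those of mm9. The series' value table, as deposited by the authors, holds log2 values, with medians of 4.90 to 4.93 per array and r = 0.971 to 0.979 with the scanner log2 values. Its direction was that of the scanner values, while its normalization and centring are not given in the sources used here. It served only as an alternative.

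The intensities of 43379 spots per array were scaled to a common 75th percentile, floored at 1 and turned into log2, without outlier spots and with the spots of each probe averaged. Probes well above background on at least 2 of 8 arrays were kept (25007 of 41174, of which 24 lacked a value on some array and were left out). A gene was represented by its brightest kept probe, which gave 16306 genes. Names were updated through a RefSeq table of GRCm38.p6, by accession for 27903 probes, symbol for 5448 and older symbol for 370, and 7453 kept the file's name. All 8 arrays were fitted together with limma 3.58.1 (lmFit, eBayes; R 4.3.3; no covariate, 5 residual and 1.8 prior degrees of freedom), after a test on simulated data. The number of arrays limits the precision. A gene not well above background in a whole group has only a bound: the bright group's mean log2 signal against the mean, over the dim group's arrays, of the higher of its own signal and the lowest signal well above background.

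The members and gene lists were chosen with earlier results of these data known. The text names all members, in each pathway list up to 2 called genes per comparison that rose most and up to 2 that fell most, called genes undetected in a group, and the 3 genes nearest in pattern to the 3 members with the widest range. A gene that this rule names is counted in its list but is not reported here. The array slide was read from the file headers: slide 1 held 1 Empty, 1 Ebf1wt and 2 Ebf1-H240A arrays, and slide 2 held 1, 2 and 1. Alternatives were other background corrections, scalings, filters and probe rules, the authors' value table, fits of only the groups compared, with slide or replicate number as a block and within each slide, and fits without each array in turn. The dendritic, erythroid and hepatocyte marker lists had summed signals of 27920 to 28000, 8282 to 9223 and 515.7 to 528 with Empty, 29360 to 30830, 1200 to 1335 and 152.9 to 184.5 with Ebf1wt, and 29240 to 34060, 834.2 to 922 and 49.41 to 51.26 with Ebf1-H240A. Cd74 made up 79.2% to 90.7% of the dendritic sum and Hbb-bt 78.3% to 99.7% of the erythroid sum, while Alas2, another erythroid gene, was not well above background with Empty and was at least 43.6-fold and 23.4-fold higher with Ebf1wt and Ebf1-H240A. The hepatocyte sum is 1 tested gene, Ahsg. The progenitor list summed to 35680 to 37350, 19130 to 20460 and 22560 to 23430.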

Additional observations from a re-analysis of the deposited data

How the results depend on the processing

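The number of members called, 5 for Ebf1wt and 6 for Ebf1-H240A against Empty, was within 1.5 times of these under most of the alternatives. It was 2 for Ebf1wt with normexp and quantile normalization, 2 and 2 for Ebf1wt and Ebf1-H240A with the authors' value table, and 3 and 3 with no filter on dim probes. Within slides 1 and 2, where the spread comes from 1 pair of arrays and a call says little, it was 0 and 0 for Ebf1wt and 2 and 0 for Ebf1-H240A. Leaving out each array in turn gave 2 to 5 and 3 to 6. For Ebf1-H240A against Ebf1wt it was 0 under all 20 alternatives. Each called member kept its sign in all 20, and was called for Ebf1wt in 18 (Nfkb1), 17 (Traf1), 15 (Traf5), 14 (Tnfaip3) and 5 (Relb) of them, and for Ebf1-H240A in 19 (Nfkb1), 19 (Traf1), 17 (Traf5), 13 (Tnfaip3), 10 (Nfkbia) and 5 (Relb). Differences that changed sign were of members that had not passed, and the cause was not tested. For Ebf1wt minus Empty, Rela became -0.0922 with normexp and quantile normalization, -0.0817 with the value table and -0.0122 within slide 1 and without Empty 2 (-0.0122 to 0.0635 over the arrays left out). Nfkb2 became 0.0837, 0.0816, 0.0070 (other 75th percentile), 0.0283 (within slide 2) and 0.0325 (without Empty 1; -0.0522 to 0.0325 over the arrays left out), and Nfkbie -0.0030 without Ebf1wt 3 (-0.0030 to 0.0873). For Ebf1-H240A minus Empty, Nfkb2 became -0.0005 within slide 1. For Ebf1-H240A minus Ebf1wt, Relb became -0.1261 with normexp and quantile normalization, -0.0116 with quantile normalization, -0.1583 with the value table, -0.0581 within slide 1, and -0.0122, -0.0251 and -0.0334 without Ebf1wt 1, Ebf1-H240A 1 and Ebf1-H240A 3 (-0.0334 to 0.0938). Tnfaip3 became -0.0054, -0.0153, -0.0206 (within slide 1) and -0.0210 (without Ebf1wt 1; -0.0210 to 0.0891), and Nfkb1 0.2102 with the mean over its probes (adjusted p = 0.0704, limma). Deviations of same-numbered arrays from their group means correlated at r = -0.33 to 0.19. With 2 or 3 arrays per group, such deviations depend on each other and cannot tell whether the numbers pair the arrays. With the replicate number as a block 4, 5 and 0 members were called in the 3 comparisons. In all, 4809, 5923 and 359 genes were then called, against 6263, 7273 and 1034 without it. The pathway genes were run through the same alternatives, a choice made after seeing the data, and all calls that the naming rule gave kept their sign. The call was kept in few of the 20 for Bcl3 (3) and Nfkbid (10) with Ebf1wt and Tnfsf11 (9) and Traf2 (13) with Ebf1-H240A, and in 7 and 9 of 19 for Plau. Between the proteins it was kept in 7 (Tnfrsf1a) and 8 (Traf3, Ikbke, Cyld). Il1b with Ebf1wt and Bcl3 and Irf1 between the proteins kept theirs in 14, and Tnfrsf11a in 14 of 19 for Ebf1wt and between the proteins. Each other call that the naming rule gave was kept in 15 or more. For Tank, Tnip1, Tab2, Tnfrsf13c, Tlr2, Gadd45b and Cxcl1 the rule gave 1 protein against Empty, and the other protein's value is given without alternatives. Signal over background limits Rel, whose probe was well above background on 0 arrays.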
